A study of Homo sapiens with 6 samples.

Results

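Flavin-containing monooxygenase (FMO) transcripts were read in oncospheres of SUM159, an established human breast cancer cell line, with and without a vector for SCGB3A1, a small secretoglobin that cells release. All probe sets whose annotation named FMO1, FMO2, FMO4 or FMO5 were taken, which gave 7 of the 54613 probe sets tested and 4 of 19775 named genes. FMO1 and FMO4 had 1 probe set each, FMO2 had 2 and FMO5 had 3. They are numbered within a gene from the highest mean level, and 0 of the 7 listed a further gene symbol. The family was singled out because FMO1 and FMO2 were already known to read higher with SCGB3A1 in these arrays, so the differences between the groups below are a description and carry no test.

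Both groups were transduced with the lentiviral vector pLVX-puro and kept under puromycin (2 µg/ml) for 7 days. The control group (3 arrays) carried the empty vector and the other group (3 arrays) carried human SCGB3A1 in the same vector. Cells then grew for 5 days as oncospheres, which are floating clusters on ultra-low attachment dishes, in HuMEC medium with BSA, B27 supplement, penicillin and streptomycin. The arrays were Affymetrix Human Genome U133 Plus arrays, 1 per sample, and the replicates were labelled biological. Whether each came from a separate transduction was not given in the sources used here, so the errors cover the spread between these samples, in 1 cell line. The question behind the experiment was how breast cancer cells respond to SCGB3A1, which the study followed as a factor made by lung endothelium during metastasis.

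FMOs are enzymes of the endoplasmic reticulum membrane. They carry a bound FAD, take electrons from NADPH, and place an oxygen atom from molecular oxygen on nitrogen or sulfur atoms of drugs, dietary amines and other small molecules. FMO1 is best known from kidney and foetal liver and also makes taurine from hypotaurine. FMO2 is the main form in the lung of many mammals. FMO4 is found at low levels in many tissues, and FMO5, abundant in liver, acts on carbonyl compounds and takes few of the classical substrates.

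In the RefSeq gene order on chromosome 1, FMO2, FMO1 and FMO4 lie in a cluster in that order, and FMO5 lies apart from them. FMO1 had the largest difference between the groups, and it has 2 annotated starts in the RefSeq promoter table (GRCh38.p14). The 250 bases before each are shown because they lie next to the annotated starts of that gene. Capitals mark the letters TATAAA on either strand, the only one of the 4 motifs searched that was present here. The first lies at chr1:171248244-171248493 and the second at chr1:171257673-171257922, both on the plus strand.
FMO1 upstream start: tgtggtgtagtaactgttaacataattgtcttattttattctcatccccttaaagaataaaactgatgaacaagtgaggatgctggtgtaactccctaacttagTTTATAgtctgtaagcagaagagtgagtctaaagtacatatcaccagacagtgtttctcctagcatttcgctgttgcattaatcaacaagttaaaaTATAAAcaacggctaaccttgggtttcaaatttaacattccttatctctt
FMO1 downstream start: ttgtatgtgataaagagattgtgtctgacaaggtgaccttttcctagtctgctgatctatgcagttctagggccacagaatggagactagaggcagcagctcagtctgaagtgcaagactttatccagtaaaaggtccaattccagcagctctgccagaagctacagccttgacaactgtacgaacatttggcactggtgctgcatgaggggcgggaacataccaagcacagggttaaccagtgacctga
The upstream window held TATAAA on the plus strand, with its first base 50 bases before the start, and once more on the minus strand. These letters were present in 10.7% of 35116 promoter windows of this length. Neither FMO1 window held TGANTCA (the AP-1 motif, present in 6.57% of windows), TGACNNNGC (the core of the antioxidant response element, 10.9%) or GCGTG (the core of the xenobiotic response element, 32.2%), each searched on both strands. The windows were 34.4% and 48.4% G and C, against a median of 58.0% over all windows. The annotated windows of FMO4 and FMO5 held GCGTG and TATAAA, respectively, each on the minus strand of the gene. These are matches of letters and say nothing of which start was used, which the arrays did not measure.

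The arrays were alike over all probe sets, apart from control replicate 2. Its correlations with the other arrays ran from 0.989 to 0.993, and those among the rest from 0.993 to 0.996. The only probe set of SCGB3A1 was not higher with the vector. Its mean went from 6.91 ± 0.13 to 6.74 ± 0.16 (SD, n = 3 each), a log2 difference of -0.17 ± 0.10 (SE, limma adjusted p = 0.83). The study's methods name a qPCR check of the genes expressed from pLVX-puro. The study also shows qPCR levels of SCGB3A1 and other factors in cancer cells, SUM159 among them, that overexpress each gene. Neither was analysed here. The sources used here do not tell whether the probe set can bind the transcript of the vector, so it may check nothing, and every direction holds for the arrays as labelled. Of the markers of a mesenchymal breast cancer line, VIM, ZEB1, CD44 and AXL had control means of 10.4 to 14.4, while PGR, CDH1 and EPCAM had control means of 6.19 to 6.35, near the low end of a table that begins at 5.66. ESR1 read 7.16 in control. Control means of the 6 liver markers ran from 6.31 for ALB to 8.13 for SERPINA1, with TTR at 7.23 and TF at 6.83. Those of lung read 7.23 and 7.98 (SFTPC), those of kidney tubule 6.30 to 7.40, and those of blood 7.24 and 7.78 (PTPRC). Over these 13 markers, the difference between the groups ran from -0.06 to 0.23 and 0 passed (limma, adjusted p = 0.72 to 0.99).

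FMO1 read 7.72, 7.82 and 8.06 in control replicates 1, 2 and 3 on the log2 scale, and 8.27, 8.35 and 8.40 in the arrays labelled SCGB3A1. All 3 arrays labelled SCGB3A1 lay above all 3 controls, with a gap of 0.21 between the groups. The mean level went from 7.87 ± 0.17 to 8.34 ± 0.06 (SD, n = 3 each), a log2 difference of 0.47 ± 0.09 (SE) or 1.39-fold. Control replicate 3 was the control nearest to the other group, and without it the difference was 0.57. Without control replicate 1, the lowest, it was 0.40. Among all tested probe sets, 99.9% had a smaller difference. In RNA from whole cultures, more cells with the transcript and more transcript per cell cannot be told apart.

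FMO2 was read by 2 probe sets, and both were higher in every array labelled SCGB3A1 than in any control. Probe set 1 read 7.00, 6.99 and 7.21 in control, and the arrays labelled SCGB3A1 read 7.47, 7.42 and 7.50. As for FMO1, control replicate 3 was the highest control. The log2 difference was 0.40 ± 0.08 (SE), or 1.32-fold. Probe set 2 read 6.92, 6.82 and 6.85 in control, and the arrays labelled SCGB3A1 read 7.05, 7.07 and 7.20. Here control replicate 1 was the highest control, and the difference was 0.24 ± 0.07 (SE), or 1.18-fold. The ID of probe set 2 ends in _s_at, which marks, in the manufacturer's naming, a probe set that can read several transcripts. The array readings of FMO2 thus had 1 direction and different sizes, with gaps between the groups of 0.21 and 0.13.

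**Figure D1:**
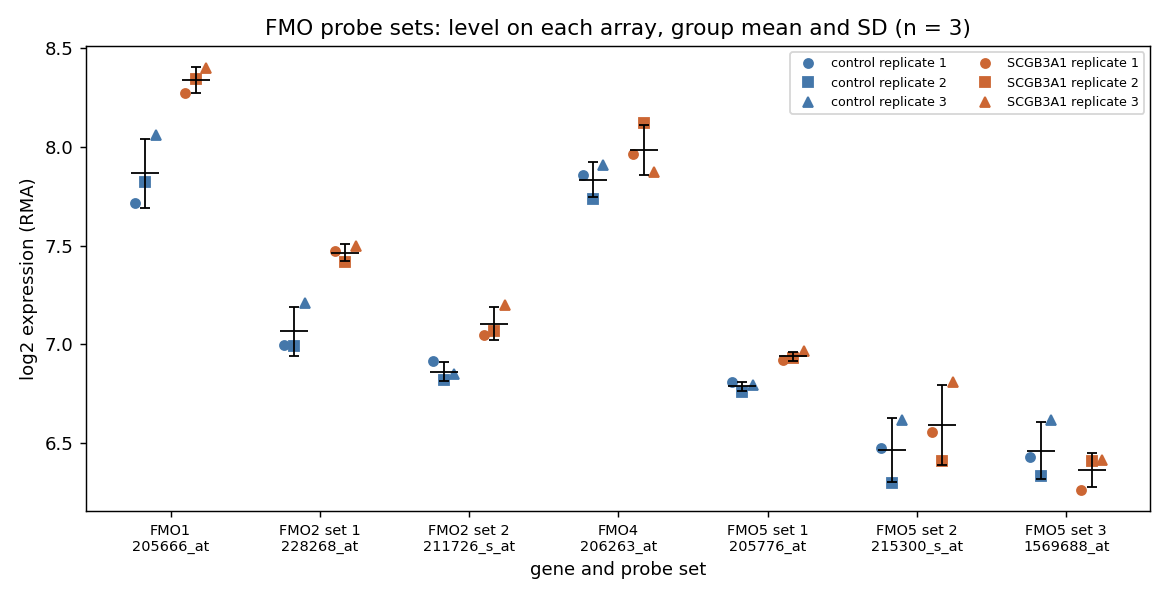
Log2 expression (vertical axis) of the 7 FMO probe sets (horizontal axis) on each array, in blue for control and orange for the arrays labelled SCGB3A1, with a symbol for each replicate, and with black bars for mean and SD (n = 3). The groups are apart for FMO1, both probe sets of FMO2 and probe set 1 of FMO5, and overlap for FMO4 and the other probe sets of FMO5.

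FMO4 read 7.86, 7.74 and 7.91 in control and 7.96, 8.12 and 7.87 in the arrays labelled SCGB3A1. The groups overlapped, since replicate 3 labelled SCGB3A1 lay below control replicate 3. The means were 7.83 ± 0.09 and 7.98 ± 0.13 (SD, n = 3 each), and the log2 difference was 0.15 ± 0.08 (SE). It depended on single arrays, with 0.10 without control replicate 2 and 0.082 without replicate 2 labelled SCGB3A1.

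The 3 probe sets of FMO5 did not share a direction. Probe set 1 read 6.81, 6.76 and 6.79 in control, and the arrays labelled SCGB3A1 read 6.92, 6.93 and 6.97. These groups did not overlap, and the replicates lay close together, with an SD of 0.024 in each group. The log2 difference was 0.15 ± 0.07 (SE), where the SE is that of limma, which draws such a small spread towards that of all probe sets. Only 0.76% of tested probe sets had a smaller spread between replicates.

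The ID of probe set 2 of FMO5 ends in _s_at, as for probe set 2 of FMO2, so this probe set can read several transcripts. It read 6.48, 6.30 and 6.62 in control and 6.56, 6.41 and 6.81 in the arrays labelled SCGB3A1. These groups overlapped and the difference was 0.13 ± 0.11 (SE). It fell to 0.018 without replicate 3 labelled SCGB3A1 and to 0.044 without control replicate 2, and it was 0.20 without control replicate 3 and 0.22 without replicate 2 labelled SCGB3A1. Probe set 3 read 6.43, 6.34 and 6.62 in control, and the arrays labelled SCGB3A1 read 6.26, 6.41 and 6.42. The difference was of the opposite sign, -0.10 ± 0.09 (SE), with overlapping groups. It was -0.019 without control replicate 3, -0.049 without replicate 1 labelled SCGB3A1 and -0.16 without control replicate 2.

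**Figure D2:**
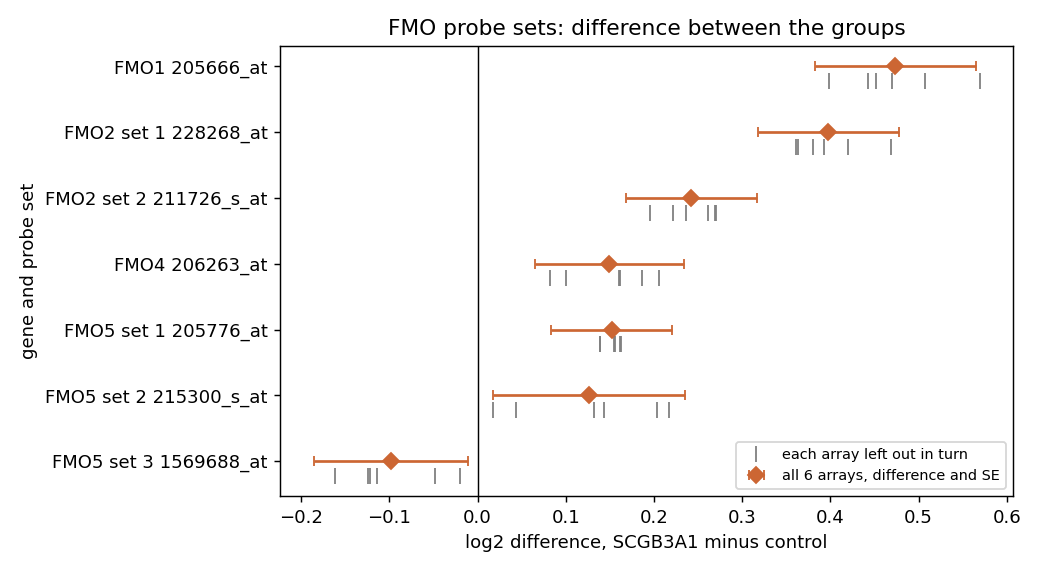
Log2 difference, SCGB3A1 minus control (horizontal axis), of the 7 FMO probe sets (vertical axis), as diamonds with the SE of limma, and grey ticks for the same difference with each of the 6 arrays left out. FMO1 and FMO2 lie between 0.24 and 0.47, and probe set 3 of FMO5 alone lies below 0.

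In all, 4 of the 7 FMO probe sets had groups that did not overlap, with SCGB3A1 higher, and 0 had them with SCGB3A1 lower. Over the whole table these shares were 5.95% and 5.25%. Differences of 0.3 or more upward were found for 2 of the 7, and for 0.324% of all probe sets. Since the family was chosen on this contrast, these counts say nothing further about it. Without control replicate 2, the array that stood apart, FMO1 read a difference of 0.45, the FMO2 probe sets 0.36 and 0.22, FMO4 0.10 and the FMO5 probe sets 0.14, 0.044 and -0.16.

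The position of a probe set in the table bears on how its values can be read, because robust multiarray average (RMA) normalization draws weak signals together and makes their fold changes too small. The mean of FMO1 lay above that of 74.2% of tested probe sets, FMO4 above 71.6%, and the FMO2 probe sets above 60.5% and 52.7%. Those of FMO5 lay above 47.9%, 30.5% and 23.3%. The 13 markers of other tissues ran from above 15.5% (ALB) to above 76.0% (SERPINA1), a range that holds all 7 FMO probe sets. Among them, SFTPC of lung lay above 73.3% and PTPRC of blood above 69.2%. These positions do not rank the transcripts by amount, since probe sets differ in how strongly they bind. No detection calls were used here, so which of the FMO probe sets lie above background is unknown.

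Each array held only 3101 to 3926 distinct values for its 54613 probe sets. At FMO1, 21 to 57 probe sets of an array had exactly the same value, and at probe set 3 of FMO5, 382 to 680 did. The steps between neighbouring values were at most 0.0068 at FMO1, 0.014 at the FMO2 probe sets and 0.022 at those of FMO5. Every difference between FMO group means was larger than these steps.

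Several FMO probe sets, FMO1 and probe set 1 of FMO2 among them, deviated from their group means together. Control replicate 3 lay 0.19 above the control mean for FMO1 and 0.14 above it for FMO2, and the deviations of control replicate 1 were -0.15 and -0.069. The Pearson correlation of these deviations was 0.87 over the 6 arrays, which share their normalization, and it is given as a description. It was not particular to this pair, since probe set 3 of FMO5, with a group difference of the opposite sign, correlated at 0.81 with FMO1 and at 0.75 with probe set 1 of FMO2. Over the same arrays, the deviations of probe set 2 of FMO2 correlated at 0.086 with those of probe set 1 of the same gene and at 0.93 with those of probe set 1 of FMO5. Within FMO5, the 3 probe sets correlated at 0.58 to 0.77. For FMO4 the correlations with the other 6 probe sets ran from -0.34 to 0.50.

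**Figure D3:**
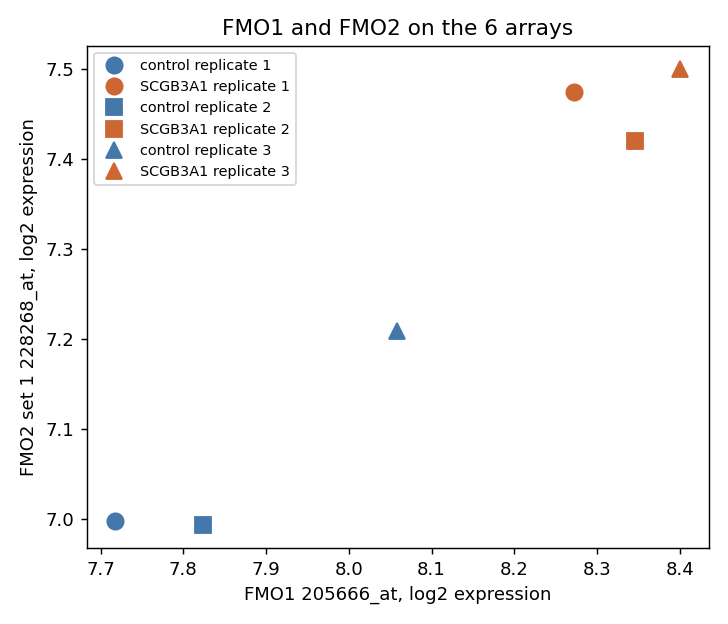
Log2 expression of FMO1 (horizontal axis) against probe set 1 of FMO2 (vertical axis), 1 point per array, in blue for control and orange for the arrays labelled SCGB3A1, with symbols for the replicate. Control replicate 3 lies between the other controls and the arrays labelled SCGB3A1 on both axes.

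The genes whose pattern over the 6 arrays was most like that of FMO1 were AIFM2, a flavoprotein that protects membrane lipids from oxidation (r = 0.99, difference 0.07), PGD, an NADPH-producing enzyme of the pentose phosphate pathway (r = 0.99, difference 0.15), GUCY1A1, part of the enzyme that senses nitric oxide (r = 0.99, difference 0.50), CLCA2, a chloride channel regulator of stratified epithelia (r = 0.99, difference 0.45), and POSTN, a matrix protein (r = 0.99, difference 0.21). For probe set 1 of FMO2 they were HS6ST2, a heparan sulfate sulfotransferase (difference 0.09), APOO, a mitochondrial cristae protein (0.18), SYT17 (0.28), TOR1AIP2 (0.20) and CELF2-AS1 (0.19), each with r = 0.99. Each value is that of the probe set most alike, and of the 8 genes with several probe sets, 3 had differences of both signs. The 2 probe sets of AIFM2 read -0.07 and 0.07, with the brighter one below 0, those of PGD ran from -0.0036 to 0.15, and the 8 of TOR1AIP2 from -0.14 to 0.20. With so few arrays, 109 probe sets reached an r of 0.95 or more with FMO1 and 142 with FMO2. The points are 2 groups of 3 arrays, so r holds the group difference as well as the spread within groups. On these probe sets none of the 10 genes passed adjusted p 0.05 (limma, adjusted p = 0.25 to 0.91), as 0.0183% of all probe sets did.

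The genes next to FMO1 and FMO2 had differences of either sign. Before FMO2 in chromosome order lay FMO6P, an FMO pseudogene, with a log2 difference of 0.07 ± 0.10 (SE), MROH9 with -0.0015 ± 0.070, PRRX1, a mesenchymal transcription factor, with 0.07 ± 0.08, GORAB, a Golgi protein, with -0.19 ± 0.07, and LINC01142 with 0.31 ± 0.08. After FMO1 lay FMO4, PRRC2C with -0.14 ± 0.11, MYOC with 0.10 ± 0.08, VAMP4, a vesicle fusion protein, with -0.18 ± 0.07, and METTL13 with 0.00029 ± 0.081. Each is given by its probe set with the highest mean. None of the 9 genes besides FMO4 passed adjusted p 0.05 (limma, adjusted p = 0.70 to 1.00). The groups did not overlap for LINC01142, which read higher with SCGB3A1, or for GORAB and VAMP4, which read lower, where all named genes gave 7.09% and 5.24%. Around FMO5, the 10 neighbours ran from -0.14 for BCL9, a Wnt co-activator, to 0.11 for PRKAB2, a subunit of AMP-activated kinase. The others were CHD1L (0.09), HYDIN2 (0.06), LOC100996756 (-0.10), NOTCH2NLA (0.02), LINC00624 (0.02), ACP6 (0.08), GJA5 (-0.02) and GPR89B (-0.02). None of these passed either, and their groups overlapped for all 10. RefSeq places an antisense transcript, FMO1-AS1, at the FMO1 locus, and no probe set was named for it here.

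**Figure D4:**
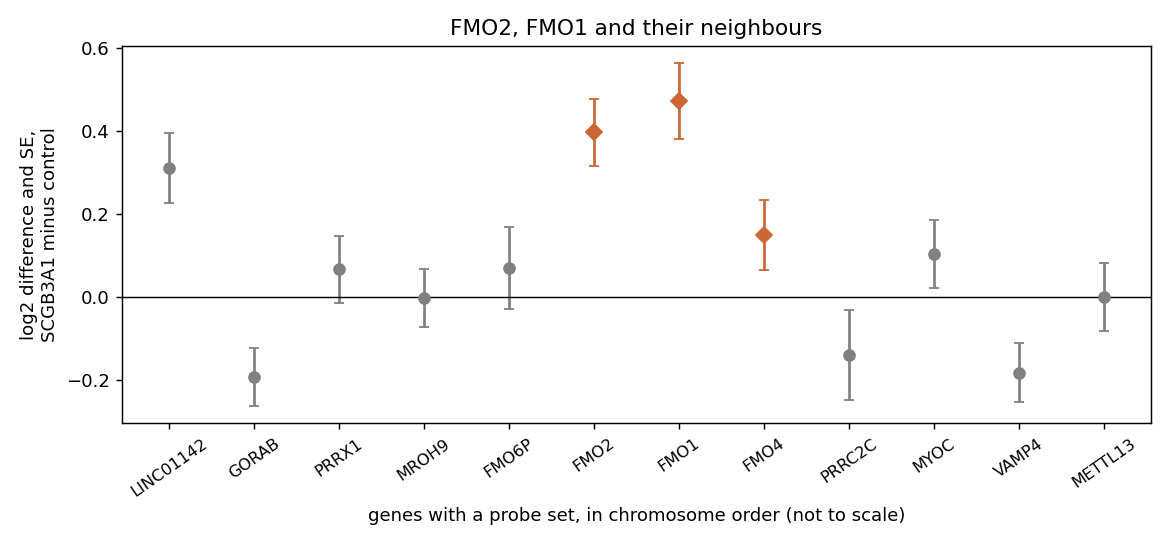
Log2 difference, SCGB3A1 minus control, with the SE of limma (vertical axis), of FMO2, FMO1 and FMO4 (orange) and of their neighbours (grey), 1 probe set per gene, in chromosome order and not to scale (horizontal axis). FMO2 and FMO1, at 0.40 and 0.47, stand next to FMO6P at 0.07 and FMO4 at 0.15.

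Genes around the FMO reaction were described from 6 lists with 169 measured genes. By limma, 0 of the 169 passed adjusted p 0.05 in either direction, where 0.0354% of all named genes passed. An unadjusted p under 0.05 was found for 16 of the 169, against 6.82% of all genes. The median difference over all genes was 0.011, and 54.3% of genes had a difference above 0.

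Of the genes for cofactor and NADPH supply, 14 of 20 had a positive difference (median 0.055). The largest were ALDH1L1, a folate enzyme that yields NADPH (0.24 ± 0.09 SE), ME3, a mitochondrial malic enzyme (-0.18 ± 0.13), and SLC52A2, a riboflavin transporter (0.17 ± 0.09). All 3 had overlapping groups. Their second probe sets read 0.082 for ALDH1L1, -0.21 for ME3 and -0.05 for SLC52A2.

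Other flavoenzymes gave a median of 0.045, with 28 of 43 above 0. NOS1, the neuronal nitric oxide synthase, read 6.84, 6.96 and 6.62 in control and 7.19, 7.29 and 7.15 in the arrays labelled SCGB3A1, a difference of 0.40 ± 0.09 (SE, limma adjusted p = 0.48). The groups did not overlap on this probe set, but the 6 probe sets of NOS1 ran from -0.06 to 0.40. ERO1A, an oxidase of protein folding in the endoplasmic reticulum, read -0.32 ± 0.11 and DDO, D-aspartate oxidase, 0.24 ± 0.11, both with overlapping groups. Other probe sets read 0.11 at the highest for ERO1A and -0.02 for DDO.

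The cytochrome P450 system, the other large group of drug monooxygenases, gave a median of 0.034, with 24 of 34 genes above 0. CYP3A5, a drug-metabolizing enzyme, was lower in every array labelled SCGB3A1 (-0.19 ± 0.07 SE, limma adjusted p = 0.76), and its 4 probe sets ran from -0.19 to 0.13. CYP27B1 and CYP27A1, hydroxylases of vitamin D and sterols, read 0.15 ± 0.10 and 0.14 ± 0.10. Conjugating enzymes, listed together with epoxide hydrolases, gave a median of 0.039, with 22 of 32 above 0. EPHX2 (0.22 ± 0.07) and EPHX1 (0.14 ± 0.07), the soluble and the microsomal epoxide hydrolase, were higher in every array labelled SCGB3A1 than in any control, and SULT1A1, a phenol sulfotransferase, read 0.18 ± 0.08 with overlapping groups, while its 3 probe sets ran from -0.08 to 0.30.

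Genes of taurine and sulfur metabolism were even in sign, with 9 of 18 above 0 and a median of 0.0013. MPST, which transfers sulfur from mercaptopyruvate, read 0.25 ± 0.08 and MSRB1, a methionine sulfoxide reductase, 0.20 ± 0.08, and neither had overlapping groups. MTR, methionine synthase, read -0.21 ± 0.12, and its second probe set -0.08. In this list the groups did not overlap for 5 genes upward and 1 downward, where all genes gave 7.09% and 5.24%. It had the most upward of the 6 lists, which together gave 16 of 169 genes upward and 6 downward. Transcription factors and other proteins listed as possible regulators of FMO genes were also even, with 11 of 22 above 0 and a median of 0.0065. CEBPA, a transcription factor of liver and fat cells, read 0.24 ± 0.08 and NFYC, a subunit of the CCAAT-binding factor, 0.16 ± 0.08, each without overlap, and ESR1 -0.17 ± 0.09 with overlap. The 6 probe sets of NFYC ran from -0.13 to 0.16, and the one given, with the ending _x_at, can bind related sequences. In none of these lists did a named gene pass (limma, adjusted p = 0.48 to 0.87).

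**Figure D5:**
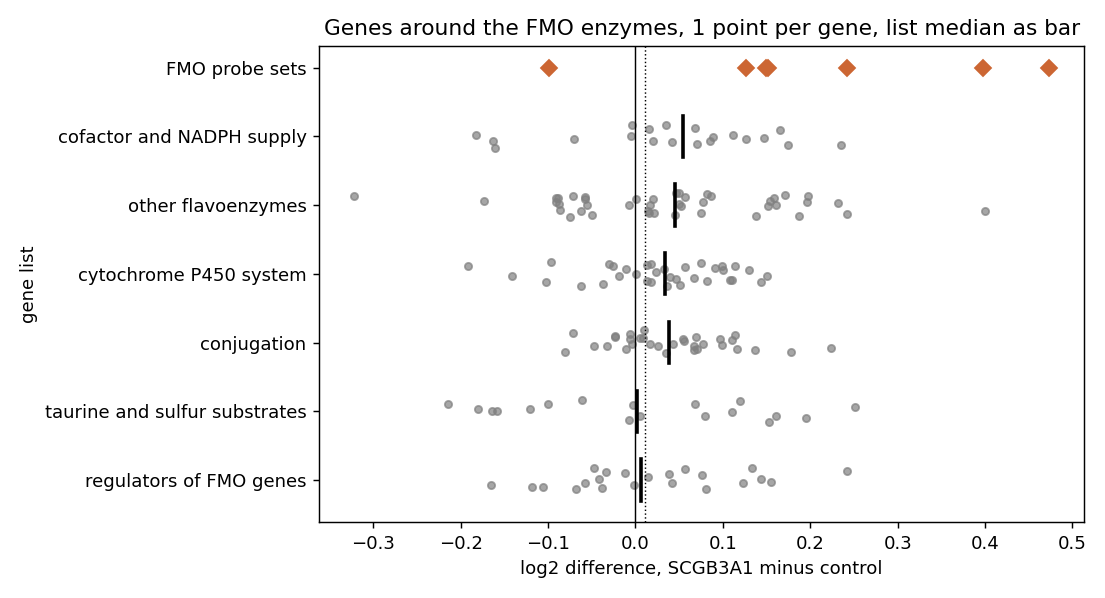
Log2 difference, SCGB3A1 minus control (horizontal axis), of the 7 FMO probe sets (diamonds) and of each measured gene in 6 lists (grey points, vertical offset within a row is arbitrary), with list medians as bars and the median of all genes, 0.011, as a dotted line. The list medians lie between 0.0013 and 0.055, and single genes reach from -0.32 to 0.40.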

How the data were processed

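Total RNA (100 ng per sample) was labelled with biotin and hybridised to Affymetrix Human Genome U133 Plus arrays, 3 per group. The authors normalized the scanner files by RMA and deposited log2 values, from 5.66 to 14.7, with 0 missing. Sorted values of an array lay within 0.026 of the mean over arrays, so a change in total RNA per cell cannot be seen. The number of arrays limits the precision. Of 54675 probe sets, 62 manufacturer controls were left out. Probe sets were named from GEO's platform annotation, with symbols updated by gene identifier against RefSeq (GRCh38.p14). Of those tested, 41091 had 1 symbol, 1801 had several and 11721 had none.

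Groups were compared with lmFit and eBayes of limma (version 3.58.1, R 4.3.3) over all tested probe sets, two-sided, with Benjamini-Hochberg adjustment, as in the study's empirical Bayes comparison. Differences are log2 values, SCGB3A1 minus control, and their SE is limma's moderated one. The fit was tested on simulated data. List genes are given by their brightest probe set over the 6 arrays, and a gene was called if any of its probe sets passed. Named were all FMO probe sets, SCGB3A1, the 3 genes of each list with the largest absolute difference and any that passed, the 5 neighbours on each side, and the 5 most alike genes by Pearson r. FMO genes and lists were chosen with earlier results of these data known. Promoter windows were taken from the RefSeq table, which held entries for FMO1, FMO4 and FMO5. Alternatives were another normalization or centring, a variance trend, array weights, a replicate block, filters, another threshold and each array left out.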

Additional observations from a re-analysis of the deposited data

How the results depend on the processing

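The FMO differences moved by less than 1 SD between replicates in all 81 comparisons with an alternative, and none changed sign. Part of this was fixed in advance: the variance trend, the replicate block and the filter on dim probe sets cannot change a difference. With 3 arrays per group, leaving 1 out cannot move a difference by 1 SD between replicates, so these comparisons could only change its sign. The arrays also had nearly the same scale before the other scalings. Array weights were thus the main alternative that could have moved a difference by 1 SD. The differences could still change in size and sign with the arrays left out. With each array left out, they ran from 0.40 to 0.57 for FMO1, from 0.36 to 0.47 and from 0.20 to 0.27 for probe sets 1 and 2 of FMO2, from 0.082 to 0.21 for FMO4, and from 0.14 to 0.16, from 0.018 to 0.22 and from -0.16 to -0.019 for probe sets 1, 2 and 3 of FMO5. With array weights, probe set 2 of FMO5 read 0.047. The filter on dim probe sets leaves no value for FMO5. The count of FMO probe sets without overlap stayed at 4 with both other scalings. No list gene passed in any of the 84 comparisons over the 6 lists. Over the whole table, 10 probe sets passed, against 19 with a variance trend, 16 with array weights, 6 without dim probe sets, 17 by the criteria of a log2 difference beyond 0.5, p under 0.05 and adjusted p under 0.25, and 1 to 6 with 1 array left out. With the replicate number as a block 4 passed, and the FMO differences were the same (0.47 for FMO1), as the design is balanced. Deviations of same-numbered arrays of the 2 groups correlated at 0.15, -0.14 and -0.087 for replicates 1, 2 and 3. Those of differently numbered arrays ran from -0.24 to 0.25. These values cannot tell whether the samples were handled in pairs.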
